A study of Mus musculus with 8 samples.

Results

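De novo lipogenesis, the making of fatty acids from sugar-derived carbon, was followed through 10 genes in adipose tissue of obese mice: Fasn, Acaca, Acly, Scd1, Elovl6, Srebf1, Mlxipl, Me1, Acss2 and Thrsp. The members are all array probes annotated to these symbols, 13 of 25697 probes. Of these, 11 probes, at least 1 for every gene, were detected and tested, among 14141 tested probes. The other 2, a second Srebf1 probe (ILMN_2696876) and a second Acss2 probe (ILMN_1231116), were detected on 0 and 1 of the 8 arrays and were left out of the tests.

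The 8 Illumina bead arrays each held total RNA of 1 sample: 3 from sgp130Fc transgenic mice aged 26 weeks, 3 from IL6 knock-out (IL6_KO) mice aged 25 weeks and 2 from wild-type (WT) mice aged 24 weeks. All mice were of the C57Bl6 background, were obese on high-fat feed and had been fasted for 5 h before the fat was frozen. sgp130Fc is a soluble form of the receptor gp130 joined to an antibody Fc part, which binds IL-6 held by its soluble receptor and so blocks trans-signalling, while IL6_KO mice lack the cytokine itself. The comparisons therefore ask how fat of obese mice differs without IL-6 or without its trans-signalling. Age runs with genotype, so the effects of age and genotype cannot be told apart. The fat depot, the promoter that drives the transgene and whether each sample is a separate animal are not given in the sources used here, so the p-values rest on sample-to-sample spread that may in part be technical.

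In this pathway Acly and Acss2 encode the enzymes that make cytosolic acetyl-CoA from citrate and from acetate. Acaca encodes acetyl-CoA carboxylase 1, which makes malonyl-CoA, and Fasn the synthase that builds palmitate from it with NADPH, part of which malic enzyme 1 (Me1) supplies. Elovl6 lengthens the product and Scd1 puts a double bond into it. Srebf1 encodes SREBP-1, the insulin-responsive transcription factor of these genes, Mlxipl encodes ChREBP, which responds to sugar, and Thrsp encodes Spot 14, a small protein linked to lipid synthesis in fat and liver. White fat is a known site of this pathway, and its activity there is known to be low on high-fat feed.

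SREBP-1 acts through sterol response elements, so the 250 bases before RefSeq gene starts (GRCm38.p6) were searched on both strands for TCACCCNA, an approximate form of that element, and for CCAAT (the CCAAT box), for GGGCGG (the GC box) and for CACGTG (an E-box, the core of the element that ChREBP binds). RefSeq gave 13 starts for 9 of the 10 members. The bases before the only Acaca start, chr11:84195188-84195437, lay inside the gene span given below, so those before the gene's 5′ end were not searched. The bases before the Fasn, Srebf1 and some Mlxipl and Me1 starts also lay inside the spans of their genes. The promoters of Fasn, Srebf1 and Acss2 are shown because they were the members holding TCACCCNA, and that of Thrsp because it held none, with the motif matches of both strands in capitals and each sequence read 5′ to 3′ along the gene. The Fasn sequence lies on the minus strand at chr11:120824548-120824797, that of Srebf1 on the minus strand at chr11:60210472-60210721, that of Acss2 on the plus strand at chr2:155517793-155518042 and that of Thrsp on the minus strand at chr7:97417551-97417800.
Fasn: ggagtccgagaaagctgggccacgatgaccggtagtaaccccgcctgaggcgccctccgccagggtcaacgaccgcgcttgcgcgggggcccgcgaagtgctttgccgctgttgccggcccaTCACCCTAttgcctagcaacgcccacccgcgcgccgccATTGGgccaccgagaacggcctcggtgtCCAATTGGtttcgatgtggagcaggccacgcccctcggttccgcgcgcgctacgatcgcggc
Srebf1: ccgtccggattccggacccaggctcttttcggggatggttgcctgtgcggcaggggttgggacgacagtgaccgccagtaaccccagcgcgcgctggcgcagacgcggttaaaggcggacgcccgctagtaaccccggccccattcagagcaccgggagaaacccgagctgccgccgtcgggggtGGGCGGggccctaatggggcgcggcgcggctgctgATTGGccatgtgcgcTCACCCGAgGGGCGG
Acss2: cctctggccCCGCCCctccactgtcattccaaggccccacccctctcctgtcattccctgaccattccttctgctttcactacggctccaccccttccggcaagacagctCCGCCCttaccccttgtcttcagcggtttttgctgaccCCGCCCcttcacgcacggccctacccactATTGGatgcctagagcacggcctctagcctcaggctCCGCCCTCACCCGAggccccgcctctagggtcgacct
Thrsp: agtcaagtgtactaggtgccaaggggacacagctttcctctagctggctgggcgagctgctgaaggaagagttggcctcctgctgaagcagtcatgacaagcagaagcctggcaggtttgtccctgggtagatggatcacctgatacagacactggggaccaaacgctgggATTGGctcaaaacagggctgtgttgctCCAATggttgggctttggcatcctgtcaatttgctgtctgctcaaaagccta

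The TCACCCNA match began 128 bases before the Fasn start, 31 before the Acss2 start and 15 before this Srebf1 start, 1 of 3 Srebf1 starts. Fasn also had CCAAT matches beginning 90, 62 and 59 bases before the start, the nearer pair overlapping, and Thrsp had matches 79 and 52 bases before its start. In Acss2 the sterol element abutted a GC box that began 37 bases before the start. Over all 13 member starts, TCACCCNA was in 3 (3.24% of 32851 promoters of the same length), CCAAT in 7 (33.8%), GGGCGG in 6 (32.7%) and CACGTG in 1, at Mlxipl (6.02%). The motifs were chosen after the sequences and the levels had been seen, and a match is a description of letters, not a measured binding site.

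Between 48.6% and 52.1% of the probes were detected on each array, and the raw median intensity lay between 109.1 and 145. IL6_KO replicate 2 stood apart: its mean correlation with the other arrays was 0.944, against 0.964 to 0.973 for the other 7, and it had the lowest level of all 10 members. Results are therefore also given without it. The probe of Il6 (ILMN_1243601) lay at 4.46 to 4.78 in sgp130Fc, 5.07 to 5.17 in IL6_KO and 4.40 to 4.47 in WT and was detected only on IL6_KO replicates 1 and 3. Whether this probe lies inside the deletion is not given in the sources used here, and its level therefore says nothing of the genotype.

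Markers of some cell types differed between the groups, while for others the groups overlapped. The mean level over 8 adipocyte markers was 10.59 to 10.72 in sgp130Fc, 8.98 to 10.38 in IL6_KO and 10.74 on both WT arrays. Among them, Fabp4 lay near background (4.43 to 6.20), and Adipoq, which encodes adiponectin, was bright on every array (12.15 to 13.63). Over 6 of 8 macrophage markers with a tested probe the mean was 11.32 to 11.69 in sgp130Fc, 11.62 to 12.12 in IL6_KO and 10.83 to 11.03 in WT. Over 5 of 6 endothelial markers it was 9.31 to 9.44 in sgp130Fc, 7.95 to 8.62 in IL6_KO and 9.19 to 9.43 in WT. Transcripts of liver, another lipogenic tissue, were uneven: the mean over 5 of 6 markers was 6.45 to 7.54 in sgp130Fc, 8.36 to 11.09 in IL6_KO and 7.93 to 10.08 in WT, highest on IL6_KO replicate 3, and Alb had no tested probe. Over 6 of 6 fibroblast and progenitor markers the mean was 10.83 to 11.12 in sgp130Fc, 11.11 to 11.58 in IL6_KO and 10.52 to 10.88 in WT, and over 5 of 5 mesothelial markers it was 6.33 to 7.59 in sgp130Fc, 7.36 to 7.60 in IL6_KO and 5.61 to 7.28 in WT. Of 5 brown-fat markers Cidea and Cox8b were tested, with a mean of 7.63 to 7.90 in sgp130Fc, 6.46 to 7.53 in IL6_KO and 7.94 to 8.63 in WT, and IL6_KO minus WT was -1.19 for Cidea (adjusted p = 0.165) and -1.17 for Cox8b (adjusted p = 0.0859). The defining brown-fat marker Ucp1 and the mammary markers Csn2 and Wap had no tested probe. With 2 of 5 lymphocyte markers the mean was 4.89 to 5.51 in sgp130Fc, 4.92 to 6.17 in IL6_KO and 5.61 to 6.87 in WT, and with 1 of 5 skeletal muscle markers it was 9.06 to 9.77 in sgp130Fc, 6.43 to 8.88 in IL6_KO and 8.82 to 9.21 in WT. The part of these markers in the results below was not tested. In whole tissue, fewer cells of a type and less RNA per cell cannot be told apart.

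All 10 lipogenesis genes had lower mean levels in IL6_KO fat than in WT fat, or 7 of 10 with each array scaled to its adipocyte markers, and 0 passed the test over all probes. With the background correction used here, the lowest ratio was that of Fasn, at 0.305 of the WT level. In sgp130Fc fat the ratios to WT ran from 0.655 for Fasn to 1.17 for Scd1, and again 0 passed. Levels below are normalized log2 intensities, in replicate order, and gene positions are those of RefSeq on GRCm38.p6. A difference is on the same log2 scale, with its standard error (SE) and its limma p-value adjusted by Benjamini-Hochberg over all 14141 probes, and it passes when that p is under 0.05.

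**Figure D1:**
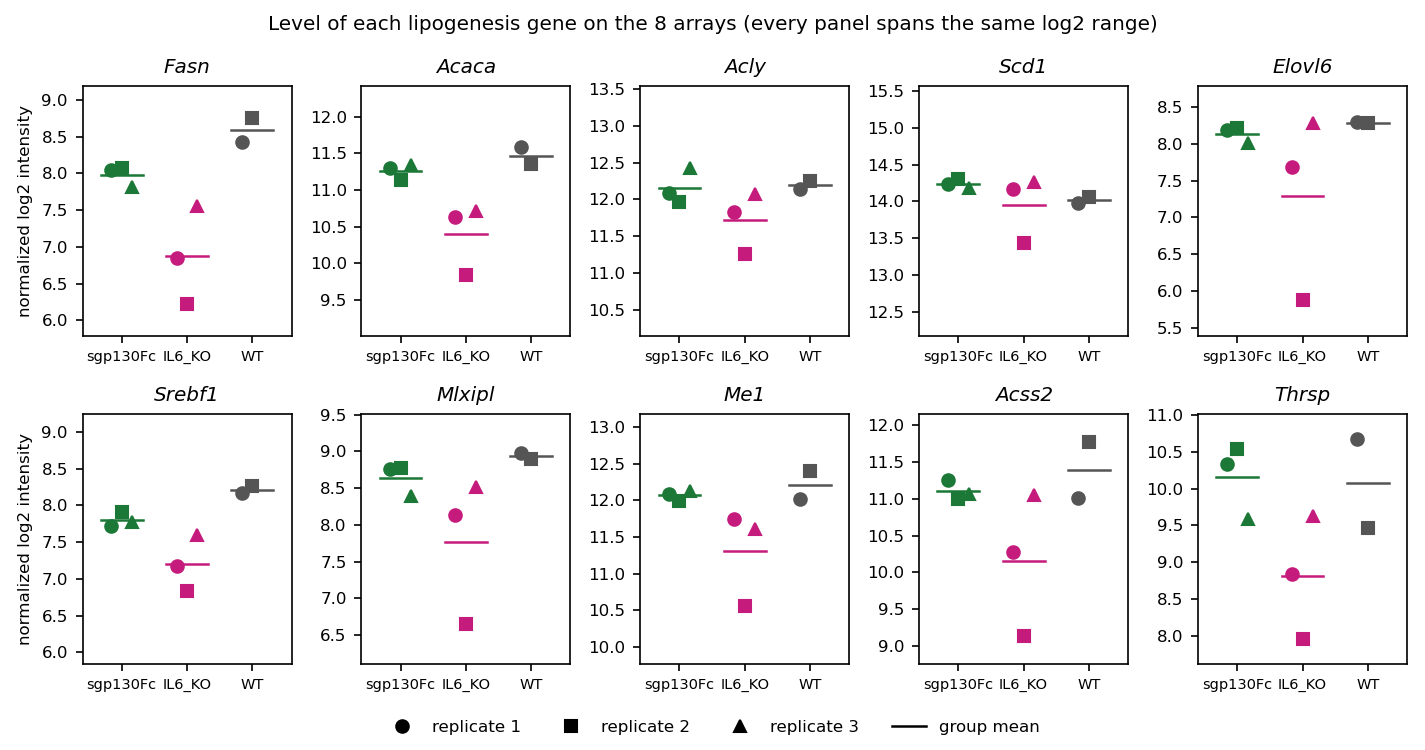
Normalized log2 intensity (vertical axis) of the brightest tested probe of each of the 10 genes on every array, by group, with a line at the group mean, and every panel spanning the same log2 range. IL6_KO replicate 2 (square) is the lowest point in each panel, and over the 8 arrays Scd1 varies least (range 0.87) and Thrsp most (2.72).

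Among the enzymes that supply carbon, Acly (probe ILMN_1240770, gene at chr11:100476352-100528000) was at 12.08, 11.96 and 12.43 in sgp130Fc, 11.83, 11.25 and 12.07 in IL6_KO and 12.14 and 12.26 in WT. All IL6_KO arrays lay below both WT arrays, replicate 3 by little. IL6_KO minus WT was -0.48 ± 0.25 (SE; adjusted p = 0.309). Acss2, whose product activates acetate (ILMN_2734181, gene at chr2:155518043-155562743), was at 11.26, 11.01 and 11.06 in sgp130Fc, 10.28, 9.14 and 11.05 in IL6_KO and 11.02 and 11.78 in WT. IL6_KO replicate 3 lay within the WT range, whose own SD was 0.54 (n = 2), so the groups overlapped. The difference was -1.24 ± 0.47 (SE; adjusted p = 0.190).

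Me1, a source of the NADPH that fatty acid synthesis consumes (gene at chr9:86581363-86695914), was read by 2 tested probes. The brighter (ILMN_2774690) gave 12.09, 11.99 and 12.12 in sgp130Fc, 11.74, 10.56 and 11.61 in IL6_KO and 12.01 and 12.39 in WT. The other (ILMN_2937261) gave 11.18, 11.12 and 11.54 in sgp130Fc, 10.83, 9.26 and 10.82 in IL6_KO and 10.97 and 11.19 in WT. On both probes every IL6_KO array lay below both WT arrays. IL6_KO minus WT was -0.90 ± 0.32 (SE; adjusted p = 0.176) on the brighter probe and -0.77 ± 0.43 (adjusted p = 0.334) on the other.

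Of the core synthesis enzymes, Acaca, the carboxylase (ILMN_1258600, gene at chr11:84129635-84401651), was at 11.30, 11.14 and 11.34 in sgp130Fc, 10.64, 9.85 and 10.71 in IL6_KO and 11.59 and 11.35 in WT. The IL6_KO arrays lay below all 5 others, and the sgp130Fc arrays just below both WT arrays. IL6_KO minus WT was -1.07 ± 0.26 (SE; adjusted p = 0.103). Fasn, the synthase whose promoter is shown above (ILMN_2874104, gene at chr11:120805958-120825166), was at 8.05, 8.07 and 7.81 in sgp130Fc, 6.84, 6.23 and 7.55 in IL6_KO and 8.42 and 8.75 in WT. The groups fell in 3 separate bands in the order IL6_KO, sgp130Fc, WT from low to high. The raw intensities behind them were 385.3, 303.7 and 253 in sgp130Fc, 214.9, 196.7 and 294.6 in IL6_KO and 487.1 and 538.8 in WT, in which IL6_KO replicate 3 lay above sgp130Fc replicate 3. Fasn averaged 7.98 ± 0.15 in sgp130Fc (SD, n = 3), 6.87 ± 0.66 in IL6_KO (n = 3) and 8.59 ± 0.23 in WT (n = 2). IL6_KO minus WT was -1.71 ± 0.33 (SE; 95% interval -2.46 to -0.96; adjusted p = 0.0736), the largest difference and the smallest p among the 11 tested member probes. The size of the Fasn difference depended on the background correction. With quantile normalization and no background correction it was -1.14, and that of Acss2, at -1.16, was lower. With an offset of 50 the Fasn difference was -1.45.

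The enzymes that modify the chain differed from each other. Elovl6, the elongase (ILMN_2614752, gene at chr3:129532386-129638495), was at 8.18, 8.21 and 8.02 in sgp130Fc, 7.69, 5.88 and 8.29 in IL6_KO and 8.30 and 8.28 in WT. IL6_KO replicate 3 was level with WT and replicate 2 lay far below the others, so that the difference of -1.003 ± 0.56 (SE; adjusted p = 0.338) had the widest error of the members and was -0.30 without replicate 2. Scd1, the desaturase (ILMN_1237375, gene at chr19:44394450-44407709), was at 14.24, 14.31 and 14.18 in sgp130Fc, 14.17, 13.44 and 14.26 in IL6_KO and 13.98 and 14.06 in WT. IL6_KO replicates 1 and 3 lay above both WT arrays and replicate 2 below them. The difference was -0.07 ± 0.24 (SE; adjusted p = 0.902; 95% interval -0.61 to 0.48), and 0.19 without replicate 2. The Scd1 probe ranked between 4 and 70 in brightness among the 25697 probes on each array, so it was near the top of the scale.

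Among the regulators, Srebf1 (ILMN_2792089, gene at chr11:60199084-60224186) was at 7.72, 7.91 and 7.78 in sgp130Fc, 7.18, 6.83 and 7.60 in IL6_KO and 8.17 and 8.26 in WT. As for Fasn and Acaca, the 3 groups did not overlap and stood in the order IL6_KO, sgp130Fc, WT. The share of all probes with this order was not counted, so only the shares for pairs of groups are given below. IL6_KO minus WT was -1.01 ± 0.22 (SE; adjusted p = 0.0881). Which of the Srebf1 starts its probe reads is not given in the sources used here, and the undetected second probe stayed between 4.29 and 4.35. Mlxipl, which encodes ChREBP (ILMN_2992232, gene at chr5:135089890-135139768), was at 8.76, 8.77 and 8.40 in sgp130Fc, 8.14, 6.65 and 8.52 in IL6_KO and 8.97 and 8.89 in WT. Every IL6_KO array lay below both WT arrays, while replicate 3 overlapped sgp130Fc, and the IL6_KO minus WT difference was -1.16 ± 0.46 (SE; adjusted p = 0.203). Thrsp, which encodes Spot 14 (ILMN_1256775, gene at chr7:97412933-97417550), was at 10.34, 10.54 and 9.59 in sgp130Fc, 8.84, 7.96 and 9.62 in IL6_KO and 10.68 and 9.46 in WT. It was the most variable member within WT (SD 0.86, n = 2), and the IL6_KO minus WT difference was -1.27 ± 0.51 (SE; adjusted p = 0.212).

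For IL6_KO against WT, 0 of 11 member probes passed, where 0.177% of all probes passed as lower and 0.0707% as higher (35 probes in all). At an unadjusted p under 0.05, 7 of 11 were lower, against 10.8% of all probes, and those 7 were the probes of Fasn, Acaca, Srebf1, Mlxipl, Me1 (the brighter), Acss2 and Thrsp. All 11 differences were below 0 (7 of 11 after scaling to the adipocyte markers), as were 49.4% over all probes. The groups did not overlap, with IL6_KO lower, for 7 of 11 probes, against 20.2% of all probes. The median over the 10 genes was -1.04, beside 0.01 over all tested probes and -0.87 over the 8 adipocyte markers. Without IL6_KO replicate 2 the median was -0.67 (adipocyte markers -0.41), 6 of 11 were lower at an unadjusted p under 0.05 (8.05% of all probes), 10 of 11 differences were below 0, the exception being Scd1 (51.2% of all probes), and 0 passed (0.364% of all probes). IL6_KO replicate 3 had the highest mean over the liver markers. Its median member, centred over the arrays, was also the nearest to WT among the IL6_KO arrays (0.03, against -0.30 and -1.37). Without this array 4 passed as lower, each with a larger difference than with all arrays: Fasn (-2.06, adjusted p = 0.0180), Srebf1 (-1.21, adjusted p = 0.0249), Acaca (-1.23, adjusted p = 0.0407) and Acss2 (-1.69, adjusted p = 0.0432). IL6_KO replicate 3 was the highest IL6_KO array for each of these 4 genes, so the larger differences follow from leaving it out. In that fit 2.89% of all probes passed as lower.

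For sgp130Fc against WT, 0 of 11 member probes passed, where 0.0424% of all probes passed as lower and 0.0495% as higher (13 probes in all). The 2 lowest differences were those of Fasn, -0.61 ± 0.33 (SE; 95% interval -1.36 to 0.14; adjusted p = 0.688), and Srebf1, -0.41 ± 0.22 (95% interval -0.92 to 0.09; adjusted p = 0.687). The remaining 9 lay between -0.29 and 0.22, and 8 of the 11 were below 0 (50.9% of all probes). At an unadjusted p under 0.05 there were 0 member probes, against 3.88% of all probes lower and 4.36% higher, and with normalization, filter and fit redone without IL6_KO replicate 2, Fasn and Srebf1 were lower (5.45% of all probes) and 0 passed (0.157%). The groups did not overlap for 5 lower probes (15.1% of all probes), those of Fasn, Acaca, Elovl6, Srebf1 and Mlxipl, and for 1 higher probe (13.1%), that of Scd1. The median over the 10 genes was -0.18, beside -0.01 over all probes and -0.12 over the adipocyte markers. The intervals were wide: for Elovl6 the interval ran from -1.42 to 1.12 and for Thrsp from -1.08 to 1.25. The comparison shares its WT arrays with the previous one.

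For sgp130Fc against IL6_KO, all 11 differences were above 0 (49.3% of all probes were), 7 of 11 after scaling to the adipocyte markers, and 0 passed, where 0.813% of all probes passed as higher and 0.453% as lower (179 probes in all). At an unadjusted p under 0.05, 7 of 11 were higher, against 9.36% of all probes. Fasn was higher by 1.10 ± 0.30 (SE; adjusted p = 0.119), Acaca by 0.86 ± 0.23 (adjusted p = 0.119) and Thrsp, the largest, by 1.35 ± 0.46 (adjusted p = 0.186). The others were Acss2 at 0.95, Mlxipl at 0.87, Elovl6 at 0.85, Me1 at 0.76 and 0.98 on its probes, Srebf1 at 0.60, Acly at 0.44 and Scd1 at 0.29. The groups did not overlap, with sgp130Fc higher, for 5 probes (13.1% of all probes), those of Fasn, Acaca, Srebf1 and Me1 on both probes. The median over the 10 genes was 0.86, beside -0.01 over all probes and 0.85 over the adipocyte markers. Without IL6_KO replicate 2 it was 0.40, with 0.38 over the adipocyte markers, 5 of 11 at an unadjusted p under 0.05 (6.94% of all probes) and 0 passing (1.02%). Without IL6_KO replicate 3, Fasn (1.45, adjusted p = 0.0222) and Srebf1 (0.80, adjusted p = 0.0488) passed as higher, where 1.76% of all probes did. Here too that array was the highest IL6_KO array for both genes, so larger differences follow from leaving it out.

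**Figure D2:**
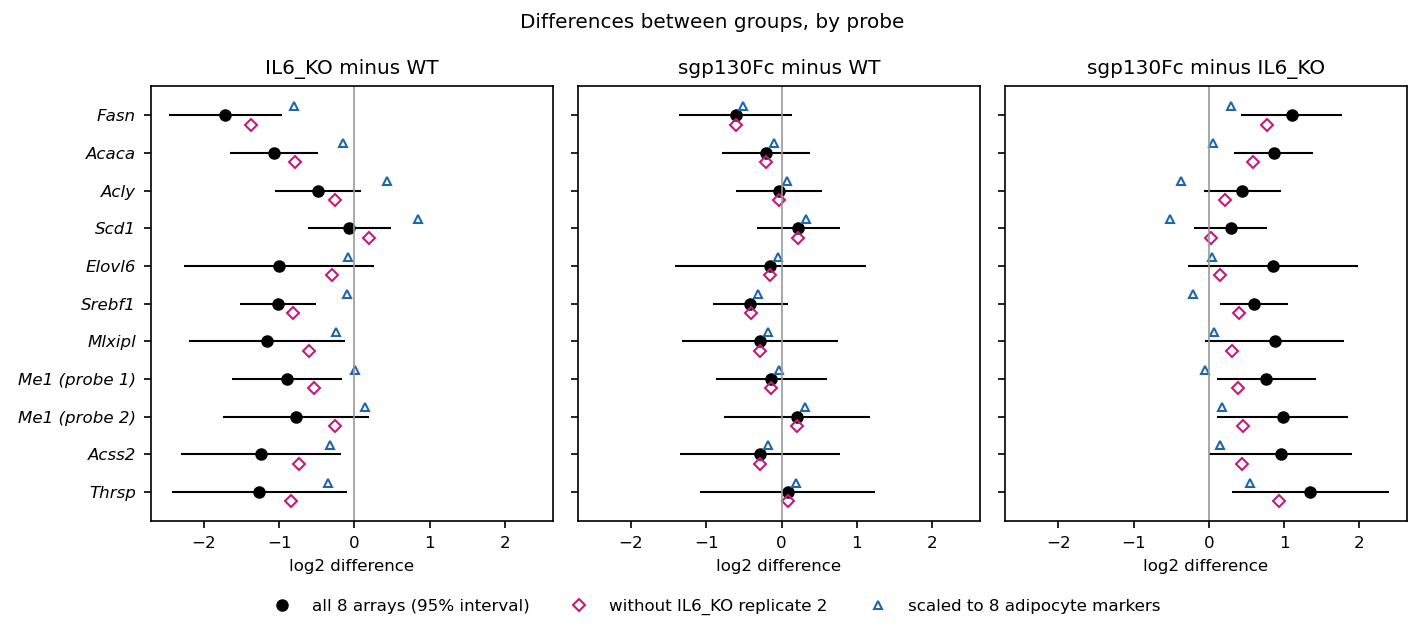
Log2 difference (horizontal axis) of each of the 11 tested member probes in the 3 comparisons, with 95% intervals of the fit to all 8 arrays (filled circles), without IL6_KO replicate 2 (diamonds) and after scaling to 8 adipocyte markers (triangles). In the comparisons with IL6_KO the diamonds lie nearer to 0 than the circles, except for Scd1 against WT, which changes sign, and after scaling the medians over the 10 genes are -0.13 (IL6_KO minus WT) and 0.05 (sgp130Fc minus IL6_KO).

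Array by array, the lipogenesis genes ran close to the adipocyte markers. Centred on its own mean over the arrays, the median member stood at 0.32, 0.23 and 0.13 in sgp130Fc, -0.30, -1.37 and 0.03 in IL6_KO and 0.46 and 0.47 in WT. IL6_KO thus held both the lowest array and 1 array, replicate 3, close to the overall mean. Expressed relative to the mean of the 8 adipocyte markers of its own array, the mean over the 10 members was -0.19, -0.33 and -0.33 in sgp130Fc, -0.39, -0.20 and -0.25 in IL6_KO and -0.21 and -0.19 in WT. IL6_KO replicate 2, the lowest array before, was within the range of WT by this measure, and the groups overlapped. This mean joined unlike genes. On that array Fasn, Elovl6, Mlxipl and Acss2 lay below both WT arrays relative to the markers. Scd1, Acly, Srebf1 and Acaca lay above both, and Me1 and Thrsp between them. Elovl6 was at -3.10, against -2.44 and -2.46 in WT, and Scd1 at 4.45, against 3.24 and 3.32.

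**Figure D3:**
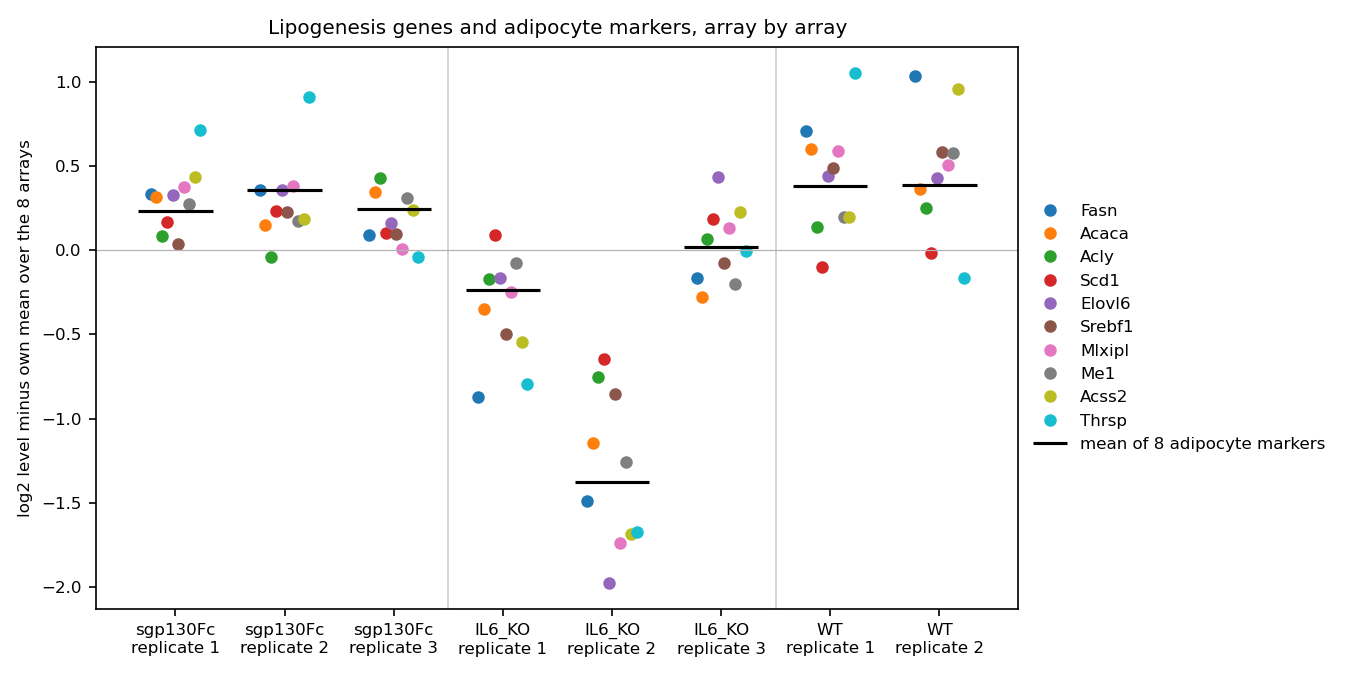
Log2 level of each of the 10 genes minus its own mean over the 8 arrays (coloured points) on every array, with the mean of 8 adipocyte markers centred likewise (bars). On IL6_KO replicate 2 all 10 genes lie below 0, around the adipocyte bar, and Fasn (blue) is low beside its adipocyte bar on IL6_KO replicate 1 and high beside it on WT replicate 2.

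With each array scaled to the adipocyte markers, the median over the 10 genes was -0.13 for IL6_KO minus WT, -0.08 for sgp130Fc minus WT and 0.05 for sgp130Fc minus IL6_KO, and 0 member probes passed in any of them, where 11.1%, 0.212% and 7.99% of all probes passed in either direction. The scaling moved the median of all probes to 0.92, 0.10 and -0.81 in these comparisons, so a member near 0 against WT in IL6_KO was low relative to most probes. Fasn kept the lowest difference for IL6_KO minus WT, -0.80 ± 0.52 (SE; adjusted p = 0.193). Relative to the markers it was at -2.54, -2.64 and -2.79 in sgp130Fc, -3.28, -2.76 and -2.83 in IL6_KO and -2.31 and -1.99 in WT, so that both WT arrays still lay above all others. Scd1 took the other sign, 0.85 ± 0.52 (adjusted p = 0.174). Its probe was near the top of the scale, where differences can be compressed, and a probe that differs little takes the sign opposite to the markers when they are subtracted, so this value does not show that Scd1 was higher. Acly and both Me1 probes also changed sign in this comparison, to 0.43, 0.01 and 0.14.

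Besides the members, 59 genes of 4 related lists were followed, of which 45 had a tested probe. In IL6_KO minus WT 0 of 45 passed, with 7 lower (10.8% of all probes) and 2 higher (9.75%) at an unadjusted p under 0.05, and in sgp130Fc minus WT 0 passed, with 5 lower (3.88%) and 1 higher (4.36%). The list medians for IL6_KO minus WT were -0.21 over 13 genes of precursor and NADPH supply, -0.19 over 12 of desaturation and elongation, -0.13 over 7 partners of the carboxylase and -0.09 over 13 regulators, beside -1.04 over the members. Without IL6_KO replicate 2 they were -0.10, -0.14, -0.06 and -0.04, beside -0.67 over the members. Pyruvate carboxylase, Pcx, which feeds citrate production, was chosen after its values were seen: it was at 9.60, 9.38 and 9.22 in sgp130Fc, 8.61, 7.66 and 8.83 in IL6_KO and 9.42 and 9.63 in WT, an IL6_KO minus WT difference of -1.16 (adjusted p = 0.115; -0.81 without IL6_KO replicate 2). The 2 related genes higher at an unadjusted p under 0.05 were Pkm, by 0.68 (adjusted p = 0.150), and Bhlhe40, by 0.60 (adjusted p = 0.204). Slc25a1, the carrier that exports citrate from mitochondria, differed by -0.78 (adjusted p = 0.294; -0.37 without IL6_KO replicate 2), and Idh1, a cytosolic source of NADPH, by 0.15 (adjusted p = 0.727). Scd2, a second desaturase, differed by -1.40 (adjusted p = 0.181; -0.84 without IL6_KO replicate 2), and its IL6_KO arrays lay at 8.61, 7.12 and 9.03, below 9.25 and 10.06 in WT. Fads1 and Elovl5, of polyunsaturated fatty acid synthesis, differed by 0.22 (adjusted p = 0.464) and -0.05 (adjusted p = 0.885). Mid1ip1, the Spot 14 relative that activates acetyl-CoA carboxylase, differed by 0.05 (adjusted p = 0.902), and Mlx, the partner of ChREBP, by 0.00 (adjusted p = 0.998; 0.15 on its other tested probe). The probes of Nr1h3 and of Insig1 gave different values. The oxysterol receptor gene Nr1h3 differed by -0.57 (adjusted p = 0.147) on its brightest probe and by 0.22 (adjusted p = 0.792) on its other. Insig1, which retains SREBP in the endoplasmic reticulum, differed by -0.31 (adjusted p = 0.628) on its brightest probe, or 0.06 without IL6_KO replicate 2, and by -1.06 (adjusted p = 0.342) and -0.87 (adjusted p = 0.424) on its 2 other tested probes. G6pdx, Pgd, Acacb and Pnpla3 had no probe here and were not analysed.

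In sgp130Fc minus IL6_KO 2 of the 45 related genes passed, both as lower, where 0.453% of all probes passed as lower. At an unadjusted p under 0.05, 6 were lower (8.44% of all probes) and 6 higher (9.36%). Insig2, the second gene of the proteins that retain SREBP in the endoplasmic reticulum, was at 8.33, 8.63 and 8.14 in sgp130Fc, 9.42, 9.37 and 9.78 in IL6_KO and 9.67 and 9.66 in WT on its brightest probe (ILMN_2690256). All 3 sgp130Fc arrays lay below the 5 others, and the gene fell by 1.16 ± 0.18 on the log2 scale against IL6_KO (SE; adjusted p = 0.0230), with -1.30 ± 0.20 against WT (adjusted p = 0.0742). Its other tested probe (ILMN_1216822) did not follow, at -0.09 against IL6_KO (adjusted p = 0.811) and -0.08 against WT (adjusted p = 0.942), so the change rests on 1 of 2 tested probes. Bhlhe40, a basic helix-loop-helix repressor of the clock, was at 8.43, 8.32 and 8.76 in sgp130Fc, 9.33, 10.05 and 9.63 in IL6_KO and 9.19 and 8.94 in WT, and fell by 1.17 ± 0.21 against IL6_KO (adjusted p = 0.0375). Without IL6_KO replicate 2 the values were -1.23 for Insig2 (adjusted p = 0.0317) and -0.98 for Bhlhe40 (adjusted p = 0.0661). The number passing was 1 without WT replicate 1, WT replicate 2 or IL6_KO replicate 2, 3 without IL6_KO replicate 3, and 0 without IL6_KO replicate 1 or any single sgp130Fc array.

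**Figure D4:**
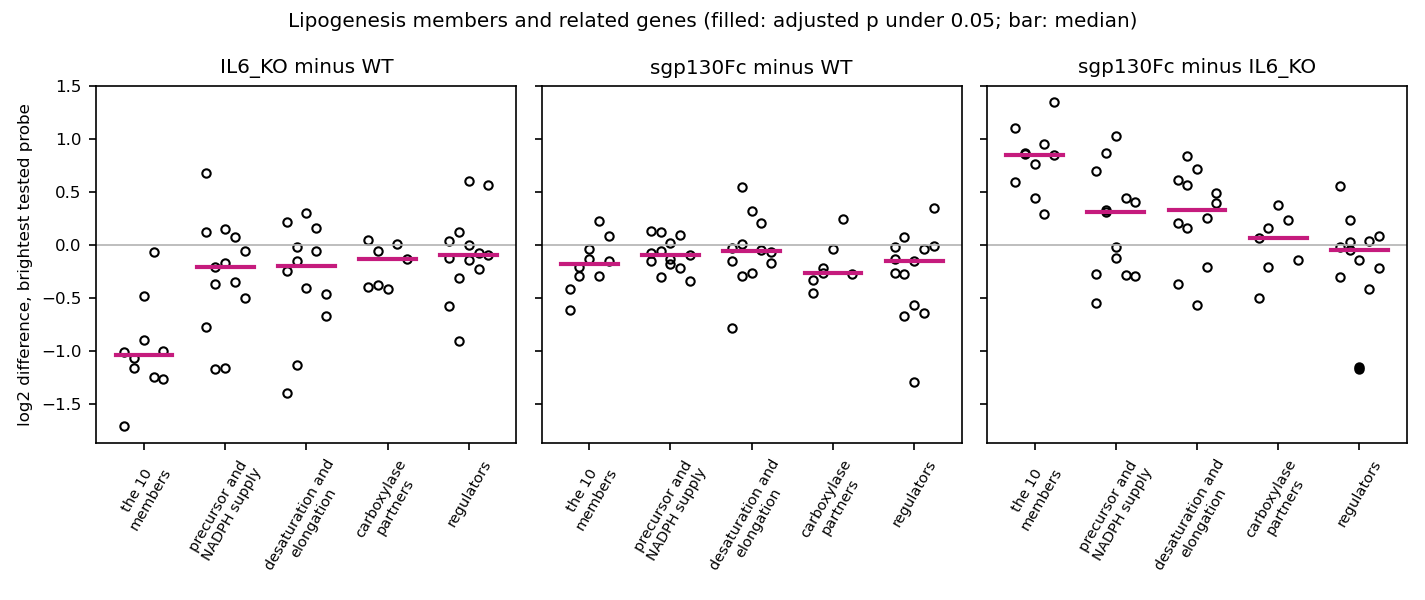
Log2 difference (vertical axis) of the 10 lipogenesis genes and of the tested genes of 4 related lists in the 3 comparisons, 1 point per gene by its brightest tested probe, with a bar at the median and filled points for an adjusted p under 0.05. The members' medians are -1.04 and 0.86 in the comparisons with IL6_KO, while the filled points are Insig2 and Bhlhe40.

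The genes whose pattern over the 8 arrays was closest to the median member, of 9793 other genes, were Atp9a, Fitm2, Dnajb13, Maob and Prxl2b. Their mean absolute distance from it was 0.06 to 0.08 on the log2 scale, where the median gene was 0.46 away. Atp9a, the closest, was at 9.35, 9.38 and 9.17 in sgp130Fc, 8.60, 7.65 and 9.03 in IL6_KO and 9.44 and 9.59 in WT. Like the members, these genes were lowest on IL6_KO replicate 2, which follows from how they were chosen. Over the 7 arrays without it the closest genes were others, Snrpn, Sirt5, Sspn, Atraid and Avpi1, at 0.04 to 0.06 (median gene 0.26). Among the members, Mlxipl (0.13) and Acaca (0.14) ran closest to their common median, and Scd1 (0.31) and Thrsp (0.41) farthest from it.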

How the data were processed

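Probe intensities on a linear scale, with detection p-values, were deposited by the authors for 8 Illumina bead arrays. On this platform the detection p-value compares a probe with the array's negative controls. The authors also deposited normalized log2 values. GenomeStudio and limma are named, without versions, in the submitters' processing notes. The intensities were normalized anew with neqc (offset 16) of limma 3.58.1 in R 4.3.3, within 0.0548 of the deposited log2 values. Detection (p under 0.05) was required on 2 or more arrays, and the 14141 probes kept were tested with lmFit and eBayes in 1 fit of the 3 groups (two-sided, Benjamini-Hochberg over these probes, threshold 0.05). The fit was tested on simulated data. Symbols came from the array annotation: 23978 probes had 1, 1719 none and 0 several.

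The brightest tested probe represents a gene. Members, lists and motifs were chosen with earlier results of these data known. Named are all members, related genes that passed, 13 fixed related genes and the 5 genes of most similar pattern. Pcx and Pkm were added after their values were seen. Likeness is the mean absolute difference of profiles centred on their own means. For scaling to adipocyte markers, each array's mean over Adipoq, Plin1, Cidec, Fabp4, Pparg, Lipe, Pnpla2 and Aqp7 was subtracted. The number of arrays limits the precision. Alternatives were other background corrections, offsets, normalizations, filters and variance models, array weights, fits of the compared groups alone, a replicate block, mean probes and leaving out each array.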

Additional observations from a re-analysis of the deposited data

How the results depend on the processing

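With 2 or 3 arrays a group, the member counts depended on which arrays were weighed most. Leaving out each array in turn gave 0 to 4 member probes passing for IL6_KO minus WT, 0 to 0 for sgp130Fc minus WT and 0 to 2 for sgp130Fc minus IL6_KO, with medians over the 10 genes of -1.37 to -0.67, -0.24 to -0.17 and 0.40 to 1.13. Without IL6_KO replicate 3, by its median member the IL6_KO array nearest to the other groups, 4 and 2 passed in the comparisons with IL6_KO. The related genes passing were 0 to 1, 0 to 0 and 0 to 3. Estimated array weights, whose fit stopped short of its tolerance, were 3.52, 0.38 and 0.70 for IL6_KO replicates 1, 2 and 3. The IL6_KO mean thus rested mostly on replicate 1. With these weights 2 member probes passed for IL6_KO minus WT (Fasn and Srebf1), where 268 of 14141 probes passed. For sgp130Fc minus IL6_KO 4 passed (Fasn, Acaca, Srebf1 and Thrsp), with 10 related genes, where 1730 of 14141 probes passed. Scaling to the adipocyte markers gave medians of -0.13 and 0.047 in these comparisons, and 3 and 4 related genes passed. It left every probe with the same SE, and over all probes 1544 passed as higher and 19 as lower for IL6_KO minus WT (10 and 25 without scaling), and 21 as higher and 1109 as lower for sgp130Fc minus IL6_KO (115 and 64 without scaling).

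The related genes passing for sgp130Fc minus IL6_KO were 1 without a detection filter, 1 in a fit of the compared groups alone and 1 with the mean of a gene's probes, against 2 as reported. For sgp130Fc minus WT 1 passed with an offset of 50 and 1 with an intensity trend. The replicate numbers did not pair the arrays: deviations of same-numbered arrays correlated at -0.35 to 0.18 over 7 pairs and 0 of 8 arrays correlated best with their own number. The replicate block gave 0 related genes for sgp130Fc minus IL6_KO and 0 member probes in every comparison.

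Over 20 alternatives for the 11 member probes, the sign held in 214 of 220 values for IL6_KO minus WT, 211 for sgp130Fc minus WT and 216 for sgp130Fc minus IL6_KO. These counts are no measure of robustness. Alternatives that changed only the filter or the intensity trend, or fitted the compared groups alone, left the differences as they were and could not change a sign. The others reused the same arrays. Over all probes, 35 passed for IL6_KO minus WT, from 5 with the compared groups alone or without sgp130Fc replicate 3 to 787 without IL6_KO replicate 3 and 1563 with scaling. For sgp130Fc minus WT 13 passed, from 3 without sgp130Fc replicate 2 or 3 to 30 with scaling, and for sgp130Fc minus IL6_KO 179, from 24 without sgp130Fc replicate 3 to 1730 with array weights. The cause was not tested. The slide as a block was not run, since the headers name no slides.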
